A study of Mus musculus with 34 samples.

Results

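A set of 51 genes on mouse chromosome 15 that flank Nr4a1 was followed in ribosome-bound mRNA of parvalbumin (PV) and somatostatin (SST) interneurons. They were chosen by symbol, as 51 neighbours of Nr4a1, and each was kept where it reached at least 1 CPM (counts scaled to a common library total) in 3 libraries of a table. All 51 passed in at least 1 table and 45 in all 5 tables: Prph did not in batches 1 and 4, Espl1 in batches 3 and 5, Tuba1c in batch 4 and Galnt6 in batch 5, and Prph, Bcdin3d, Espl1 and Tarbp2 are not listed for batch 2. This is out of 53465 genes listed in the tables of batches 3, 4 and 5. The GENCODE M21 annotation of GRCm38 places 337 genes within 5 Mb of Nr4a1, of which 193 are protein-coding and 104 reached that level in batch 3. The rule uses position and level, and no change between groups, but the symbols were chosen with earlier results of these data known. They are a part of the window, so shares among them do not stand for all of it.

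The libraries came from RiboTag mice (C57/BL6 mouse in the labels) at postnatal day 60, in which Cre recombinase switches on an HA tag on the ribosomal protein Rpl22, so that tagged ribosomes and their mRNA can be pulled down. Cre was driven from Pvalb or from Sst, so only cells that use these genes carry the tag, and a gene with loxP sites is recombined in the same cells. The home cage groups were PV:Cre/Ribotag (n = 3, batch 3) and Sst:Cre/Ribotag (n = 3, batch 4). The conditional knockout (cKO) groups were PV:Cre/Nr4a1-f/f/Ribotag (n = 3, batch 3) and Sst:Cre/Nr4a1-f/f/Ribotag (n = 3, batch 5), also kept in the home cage, and all groups carry Cre and the tag. The control groups carry no floxed Nr4a1 in their labels. PV:Cre/Ribotag and Sst:Cre/Ribotag mice were also put through contextual fear conditioning (CFC, foot shocks in a context; n = 3 each, in batches 3 and 4). Others received saline or the GABA receptor antagonist pentylenetetrazol (PTZ), in batch 1 (PV, n = 3 and 4) and batch 2 (SST, n = 4 and 3, with PV saline, n = 2). The tissue label is cortex and hippocampus. In SST, genotype and batch cannot be told apart, since the cKO libraries form a batch of their own.

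Nr4a1 encodes an orphan nuclear receptor of the immediate early class, which neurons transcribe within minutes to hours of activity. Its neighbours on chromosome 15 are unrelated in function: α-tubulins, a chromatin remodelling subunit, transcription factors, RNA-binding proteins, channels and transporters. A gene altered by homologous recombination travels with the chromosome around it when mice are bred, which is why genes near a targeted allele are of interest in a comparison of genotypes.

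The 18 libraries of batches 3 to 5 held 10096035 to 27282912 counts each, those of batch 1 12135910 to 20990665 and those of batch 2 4933110 to 18413104. The 4 PV markers (Pvalb, Tac1, Kcnc1, Syt2) summed to 1531 to 1642 CPM in PV home cage, 1452 to 2867 CPM in PV cKO and 372 to 815 CPM in SST home cage libraries. The 4 SST markers (Sst, Chodl, Nos1, Npy) summed to 8759 to 9005 CPM in SST home cage, 5692 to 6072 CPM in SST cKO and 343 to 787 CPM in PV home cage libraries. The 8 excitatory neuron markers summed to 648 to 857 CPM in SST home cage and 326 to 391 CPM in SST cKO, and the 8 oligodendrocyte lineage markers to 1031 to 1530 and 717 to 837 CPM. Astrocyte markers summed to 469 to 663 and 351 to 408 CPM, and microglia markers to 62.4 to 94.1 and 40.7 to 54.2 CPM. None of the markers of these lists was at 0 in either group. In PV the direction was the other way: oligodendrocyte lineage markers summed to 221 to 362 CPM in home cage and 420 to 1011 CPM in cKO, and microglia markers to 38.1 to 43.6 and 49.8 to 67.5 CPM. The 12 vascular and mural markers summed to 124 to 668 CPM in SST home cage and to 46.8, 47.6 and 1206 CPM in SST cKO, so 1 cKO library (replicate 1) stood apart. In such pooled mRNA, fewer cells of a type and less mRNA per cell cannot be told apart.

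Nr4a1 (ENSMUSG00000023034, chr15:101254269-101274795, plus strand) was read first in every library. Its level in PV home cage libraries was 5.07, 7.43 and 11.7 CPM, and in PV cKO libraries 6.68, 16.5 and 7.65 CPM. In SST home cage it was 23.8, 15.3 and 13.9 CPM, and in SST cKO 14.2, 11.3 and 17.6 CPM. The groups overlapped in both lines. The log2 fold change was 0.38 ± 0.35 (SE) in PV, with an adjusted p of 0.592, and -0.30 ± 0.22 in SST, with an adjusted p of 0.511, by the quasi-likelihood test of edgeR with Benjamini-Hochberg adjustment over all genes. These are counts over the whole gene, and the deleted part was not counted on its own. Reads from exons outside the deleted part may stay in the counts, so the values do not check the deletion. Why Nr4a1 was not called lower in cKO was not tested. After CFC it stood at 56.9, 56.1 and 64.3 CPM in PV and 86.6, 106 and 94.3 CPM in SST libraries. After PTZ it stood at 121, 110, 106 and 90.6 CPM in PV, against 37.3, 4.63 and 8.33 CPM with saline. In SST it was 88.5, 118 and 102 CPM with PTZ, against 44.3, 32.3, 14.7 and 30.2 CPM with saline, and in PV saline libraries of the same batch 33.0 and 9.62 CPM. The CFC libraries lay above all home cage libraries in both lines, and PTZ above saline likewise. The rise after CFC was 2.44 ± 0.23 on the log2 scale in SST (adjusted p = 0.00497 by edgeR). It missed the threshold without SST CFC replicate 2 or home cage replicate 2 or 3 (adjusted p up to 0.0809 by edgeR). In PV it was 2.90 ± 0.37 (adjusted p = 0.0594 by edgeR), which passed the threshold in 6 of 8 other settings, DESeq2 and limma voom among them, and without home cage replicate 1 or 3. PTZ missed the threshold, with 2.69 ± 0.59 in PV and 1.76 ± 0.35 in SST (adjusted p = 0.239 and 0.143 by edgeR), but passed in PV by DESeq2 and without saline replicate 1, where the value was 4.04, and in SST by limma voom. For cKO against CFC the log2 fold change was -2.53 ± 0.35 in PV and -2.74 ± 0.23 in SST (adjusted p = 0.0153 and 0.000195 by edgeR), and these comparisons differ in both genotype and conditioning. The PV call was kept without cKO replicate 2 and lost without any other single library (adjusted p up to 0.0818 by edgeR), and the SST call was kept in all 6 such fits.

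The 51 genes lie between positions 98812797 and 103299868, 32 of them at lower and 19 at higher coordinates than Nr4a1. The farthest is 2.42 Mb away on the lower and 2.00 Mb on the higher side. The nearest on the lower side are Grasp, a scaffold protein of receptor trafficking, at 0.0215 Mb, Acvr1b, a type I activin receptor, at 0.0406 Mb, and Slc4a8, a sodium-driven bicarbonate transporter, at 0.430 Mb. On the higher side the nearest are Eif4b, a translation initiation factor, at 0.799 Mb, Tns2, a tensin, at 0.826 Mb, and Spryd3 at 0.842 Mb. The gap before Eif4b holds much of a keratin cluster: 27 Krt genes are annotated within 5 Mb of Nr4a1, and 2 of them reached the level of the rule in batch 3.

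Some of the 51 genes share sequence with other genes, which bears on their counts. Of the stretches of 50 bases in annotated transcripts of Tuba1a, 72.9% also occur in transcripts of another gene, against 66.7% for Tuba1b, 52.7% for Tuba1c, 28.2% for Hnrnpa1, 25.8% for Mcrs1, 17.9% for Pfdn5 and 0% for Smarcd1. The 3 α-tubulins are compared because the value that differed most rests on telling them apart. Over the coding sequence Tuba1a and Tuba1b differ at 23 of 1353 bases and Tuba1a and Tuba1c at 37 of 1347 (97.3% identity).

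Exons overlap for several of the genes: Pfdn5 with Myg1 on the same strand, and, on opposite strands, Pcbp2 with Map3k12, Kcnh3 with Mcrs1, Csad with Zfp740 and Smarcd1 with the predicted genes Gm17349 and Gm34939. Whether the libraries keep the strand is not stated in the labels, so reads of such pairs may be shared. Promoter windows around the start site from RefSeq (GRCm38.p6) matched 46 of the 51 genes. The response element bound by Nr4a1 as a monomer, AAAGGTCA on either strand, was found in 0 of the 46, against 1.51% of 32851 promoters. The cAMP response element TGACGTCA was likewise found in 0 of the 46, against 1.79%. The GC box GGGCGG was found in 39 of the 46 (84.8%), against 35.7% of all promoters. A listed gene counted if any of its promoter windows held the sequence, while the shares of all promoters are per window. A gene with several windows has more chances to count, so these shares are in unlike units and show no enrichment.

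**Figure D1:**
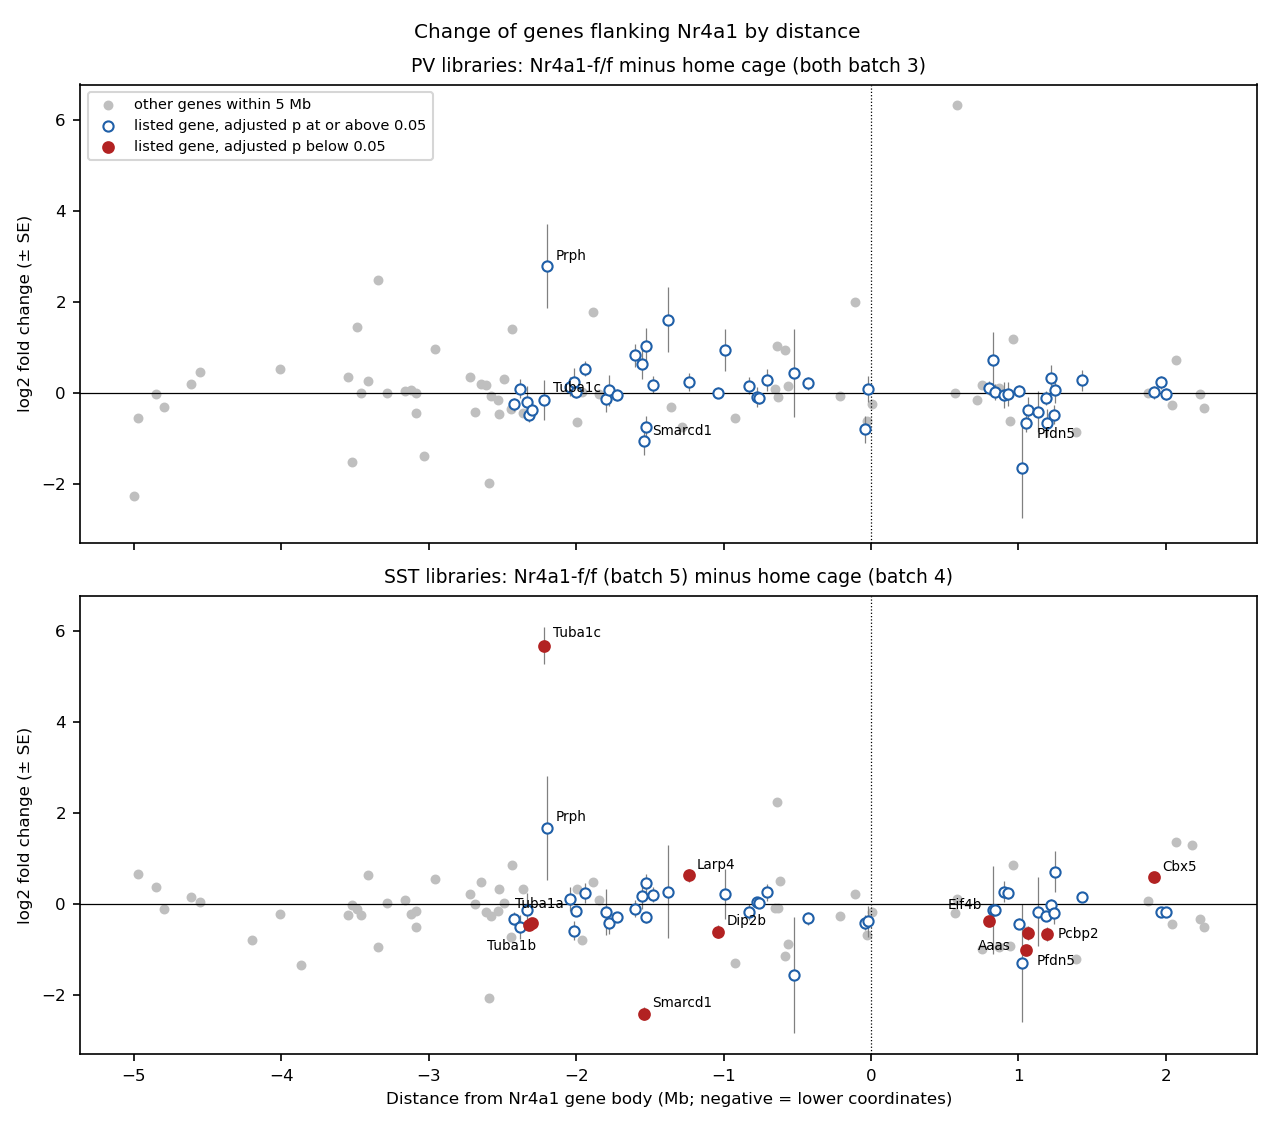
Log2 fold change (y axis, ± SE) of genes near Nr4a1 against their distance from its gene body in Mb (x axis) for Nr4a1-f/f minus home cage libraries, PV above and SST below. Grey points are other genes within 5 Mb. None of the 51 listed genes passed the threshold in PV, where 0.139% of all genes did. In SST 11 passed, where 8.1% of all genes did. Only 3 listed genes lie within 0.5 Mb of Nr4a1, too few to compare with that share, and none of them passed.

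The main question was whether genes beside Nr4a1 differed between floxed and control mice, by distance and by sign. In PV, 0 of the 51 passed the threshold of an adjusted p of 0.05 with edgeR, where 21 of 15150 genes passed in all (0.139%, and 0.156% of genes at the level of the rule). At an unadjusted p below 0.05 there were 12 (23.5%, against 17.8% of all genes), of which 5 had a positive and 7 a negative fold change. DESeq2 called 5 of the 51, and 652 of all genes, and limma voom 0. Of the 51, 29 had a positive and 22 a negative log2 fold change, with a median of 0.03, and the median over all genes tested was 0.04. The PV cKO libraries lay above all home cage libraries for 3 genes (9.37% of all genes tested did) and below them for 5 (9.02%, or 18.4% in both directions). A single home cage library set how many passed: without replicate 1 of the PV home cage group, 4 genes were called, all lower (Pfdn5, Cox14, Tuba1b and Acvr1b), and 1224 of all genes.

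Smarcd1 had the smallest p in PV. It encodes a subunit of SWI/SNF (BAF) chromatin remodelling complexes and lies at chr15:99702129-99713991, 1.54 Mb from Nr4a1. It measured 52.6, 62.7 and 77.7 CPM in PV home cage and 49.2, 21.4 and 21.9 CPM in PV cKO libraries. Replicates 2 and 3 of the cKO group were well below the controls and replicate 1 only just below. The log2 fold change was -1.05 ± 0.32, with an adjusted p of 0.159 by edgeR, 0.0217 by DESeq2. Pfdn5, a subunit of the prefoldin chaperone that hands unfolded actin and tubulin to the folding machinery, measured 222, 289 and 392 CPM in home cage and 146, 208 and 217 CPM in cKO. The groups did not overlap, by a narrow margin, and the log2 fold change was -0.66 ± 0.20 (adjusted p = 0.162 by edgeR, 0.0461 by DESeq2). Cox14, an assembly factor of cytochrome c oxidase, had a mean of 528 ± 179 CPM (SD, n = 3) in home cage and 316 ± 72.4 CPM in cKO, with overlapping groups and a log2 fold change of -0.74 ± 0.23. For Pfdn5, Cox14, Pcbp2 and Acvr1b, the home cage library with the highest value was replicate 3, which has the fewest counts in batch 3.

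Genes with positive values in PV did not pass either. The part of the oligodendrocyte and microglia markers, which were higher in PV cKO, in these values was not tested. Prpf40b, a splicing-associated protein, measured 29.8, 31.4 and 27.2 CPM in home cage and 46.4, 44.1 and 37.2 CPM in cKO, and Racgap1, a protein of cell division, 9.89, 9.22 and 5.02 against 16.0, 12.7 and 14.5 CPM. Both groups of libraries were apart for these genes, with log2 fold changes of 0.53 ± 0.16 and 0.83 ± 0.26 and adjusted p of 0.164 and 0.168 by edgeR. Prph, the intermediate filament peripherin, had the most positive value, 2.78 ± 0.92, but rested on 1 library: cKO measured 2.24, 0.623 and 13.9 CPM, home cage 1.02, 0.688 and 0.655 CPM. Gpd1, glycerol-3-phosphate dehydrogenase, and Lima1, an actin-binding LIM protein, had values of 1.03 ± 0.39 and 1.61 ± 0.71 with overlapping groups. DESeq2 called Prph (adjusted p = 0.0246) and Racgap1 (0.0493), besides Smarcd1, Pfdn5 and Cox14. The other genes that were called in SST had values in PV from -0.67 ± 0.31 for Pcbp2 to 0.24 ± 0.20 for Larp4, with Aaas at -0.37 ± 0.27 and Eif4b at 0.11 ± 0.16, and Cbx5 (0.01 ± 0.15) and Dip2b (0.01 ± 0.13) near 0.

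In SST, 11 of the 51 genes passed the threshold (21.6%), 3 higher and 8 lower in the cKO libraries, where 8.1% of 15453 genes passed (1252, of which 543 were higher, 3.51%, and 709 lower, 4.59%). Among genes that reach the level of the rule, 8.8% passed. Without Tuba1c, which was below the level of the rule in the home cage batch and entered through the cKO libraries, the count was 10 of 50, 2 higher and 8 lower. The genes that rose, apart from Tuba1c, were Cbx5 and Larp4, and those that fell were Smarcd1, Pfdn5, Pcbp2, Tuba1a, Dip2b, Eif4b, Aaas and Tuba1b. The median log2 fold change over the 51 was -0.17, against 0.02 over all genes tested, with 33 negative and 18 positive values. The cKO libraries lay above all home cage libraries for 4 of the genes (15% of all genes tested did) and below them for 16 (14.9%, or 29.8% in both directions). The 40 genes that were not called had values from -1.56 ± 1.27 for Galnt6, a glycosyltransferase at or below 6.60 CPM, to 1.68 ± 1.14 for Prph. Every one of these values sets batch 5 against batch 4, and the sums of SST, excitatory, oligodendrocyte, astrocyte and microglia markers were also lower in the cKO libraries. Their part in the result was not tested.

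Smarcd1 changed most among those that fell. It measured 57.3, 68.4 and 74.8 CPM in SST home cage, 71.4, 73.0 and 69.0 CPM in SST CFC and 10.8, 13.9 and 13.1 CPM in SST cKO libraries. All 3 cKO libraries lay far below every library of both other groups. Against home cage this was a log2 fold change of -2.40 ± 0.14 (adjusted p = 3.81e-05 by edgeR), and against CFC, which shares the cKO libraries, -2.49 ± 0.14. With saline or PTZ the gene stood at 74.3 to 109 CPM in the SST libraries of batch 2, in a table scaled on its own. It was called in all 15 alternatives run on this comparison, with log2 fold changes from -2.48 to -2.31. Among these, the filter on the listed genes alone repeats the main fit for a single gene, so its call was fixed. The setting with the 3 Tuba1 genes summed changes only those features, so for Smarcd1 it is close to the main fit.

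Pfdn5 (chr15:102326116-102331873) measured 168, 157 and 138 CPM in SST home cage and 82.7, 73.5 and 73.8 CPM in SST cKO libraries. The groups were far apart, with a log2 fold change of -1.01 ± 0.10 (adjusted p = 0.000641 by edgeR). Pfdn5 too was called in all 15 alternatives, with the same limit as for Smarcd1. Myg1, which overlaps Pfdn5 on the same strand and is not one of the 51, measured 57.7, 46.1 and 51.1 CPM in home cage and 30.8, 34.1 and 37.8 CPM in cKO, and its log2 fold change was -0.59 ± 0.13 (adjusted p = 0.0223 by edgeR).

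Tuba1c, an α-tubulin at chr15:99029891-99038110, was 2.22 Mb from Nr4a1 and had a value of the opposite sign. It measured 0.468, 1.96 and 1.14 CPM in SST home cage, from 8, 33 and 23 counts, and 0.415, 0.595 and 0.813 CPM after CFC. In SST cKO libraries it measured 56.9, 64.4 and 61.4 CPM, from 1351, 1547 and 1510 counts. Against home cage the fitted log2 fold change was 5.67 ± 0.41. Tuba1c was below the level of the rule in batch 4 and entered this fit through the cKO libraries, where it is high, so its value is a description and its passing the threshold supports nothing. Of the counts of Tuba1a, Tuba1b and Tuba1c together, Tuba1c took 0.0299% to 0.173% in the libraries of batch 4 and 5.57% to 5.87% in those of batch 5. In PV, where all groups were in 1 batch, it took 1.70% to 6.67%, and its level was 43.6, 47.8 and 13.97 CPM in home cage and 32.4, 17.7 and 45.3 CPM in cKO libraries. The low level was found in both groups of batch 4, while SST libraries of batch 2 measured 9.48 to 18.7 CPM in their own table. The labels do not state whether batches 4 and 5 shared an annotation and a rule for reads that match several genes.

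The other 2 α-tubulins fell in SST. Tuba1a, the main neuronal form, measured 1182, 924 and 1141 CPM in home cage and 759, 841 and 848 CPM in cKO, and Tuba1b 279, 207 and 255 CPM against 159, 192 and 192 CPM. Their log2 fold changes were -0.41 ± 0.09 and -0.45 ± 0.12 (adjusted p = 0.0249 and 0.0418 by edgeR). Tuba1a missed the threshold without home cage replicate 1 or 3 or cKO replicate 2 or 3 (adjusted p up to 0.0867 by edgeR), and Tuba1b without any single library other than home cage replicate 2 (up to 0.142). Both also missed it with only the groups compared and with a replicate block. In PV the values were -0.37 ± 0.14 and -0.48 ± 0.16, with no overlap of groups and no call. With the counts of the 3 α-tubulins added into 1 feature, an alternative chosen after seeing the data, the log2 fold change was -0.33 ± 0.10 in SST (adjusted p = 0.0619 by edgeR) and -0.39 ± 0.14 in PV (adjusted p = 0.199). The sum was not called in either line. Tuba1c took at most 6.67% of the counts summed, so the sum follows Tuba1a and Tuba1b and does not bear on Tuba1c.

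**Figure D2:**
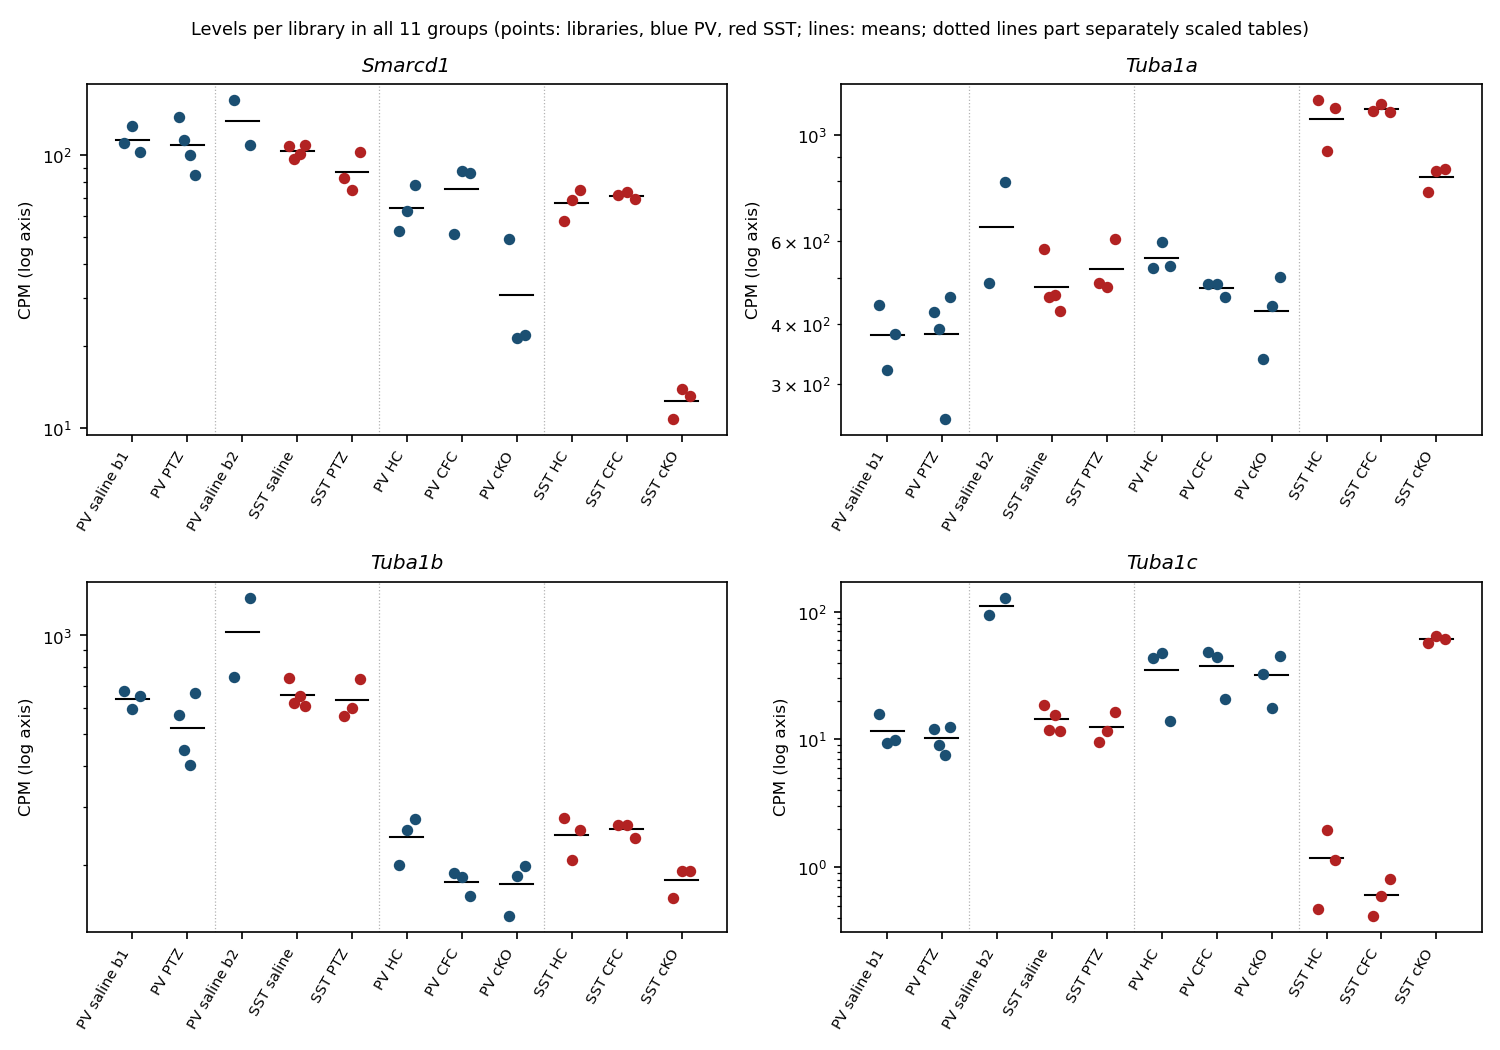
CPM (log axis) of Smarcd1 and of the 3 Tuba1 genes in each library of all 11 groups, with lines at the group means; dotted lines part tables that were scaled separately. Smarcd1 sits at 10.8 to 13.9 CPM in SST cKO, and Tuba1c is below 2 CPM only in the 6 libraries of batch 4.

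The remaining genes called in SST changed by less than 1 on the log2 scale. Cbx5, heterochromatin protein HP1α, had 185, 138 and 173 CPM in home cage and 219, 268 and 257 CPM in cKO, a log2 fold change of 0.59 ± 0.12. Larp4, a poly(A)-binding La-related protein, had 26.8, 28.3 and 31.5 CPM against 38.3, 50.6 and 45.1 CPM, or 0.63 ± 0.15. Both were higher in all 3 cKO libraries than in any home cage library. Among those that fell, the RNA-binding protein Pcbp2 went from 34.9 ± 3.49 to 22.0 ± 2.51 CPM (SD, n = 3 each), a log2 fold change of -0.66 ± 0.15. Dip2b, a disco-interacting protein homologue, went from 53.6 ± 4.26 to 35.3 ± 5.01 CPM, or -0.60 ± 0.14. Aaas, the nuclear pore protein aladin, went from 40.6 ± 5.36 to 26.2 ± 0.766 CPM, or -0.63 ± 0.16. Eif4b went from 178 ± 16.5 to 137 ± 11.7 CPM, or -0.38 ± 0.09. None of these 4 had overlapping groups. The adjusted p of the 6 genes ran from 0.0146 to 0.0347 by edgeR. Each of them missed the threshold when 1 or more single libraries were left out: without SST cKO replicate 2, 3 of the 51 genes were called, against 4 without cKO replicate 3 or home cage replicate 1, 6 without home cage replicate 3 and 7 without cKO replicate 1. Over all genes, 426 were called without cKO replicate 2, 412 without cKO replicate 3 and 806 without home cage replicate 1.

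**Figure D3:**
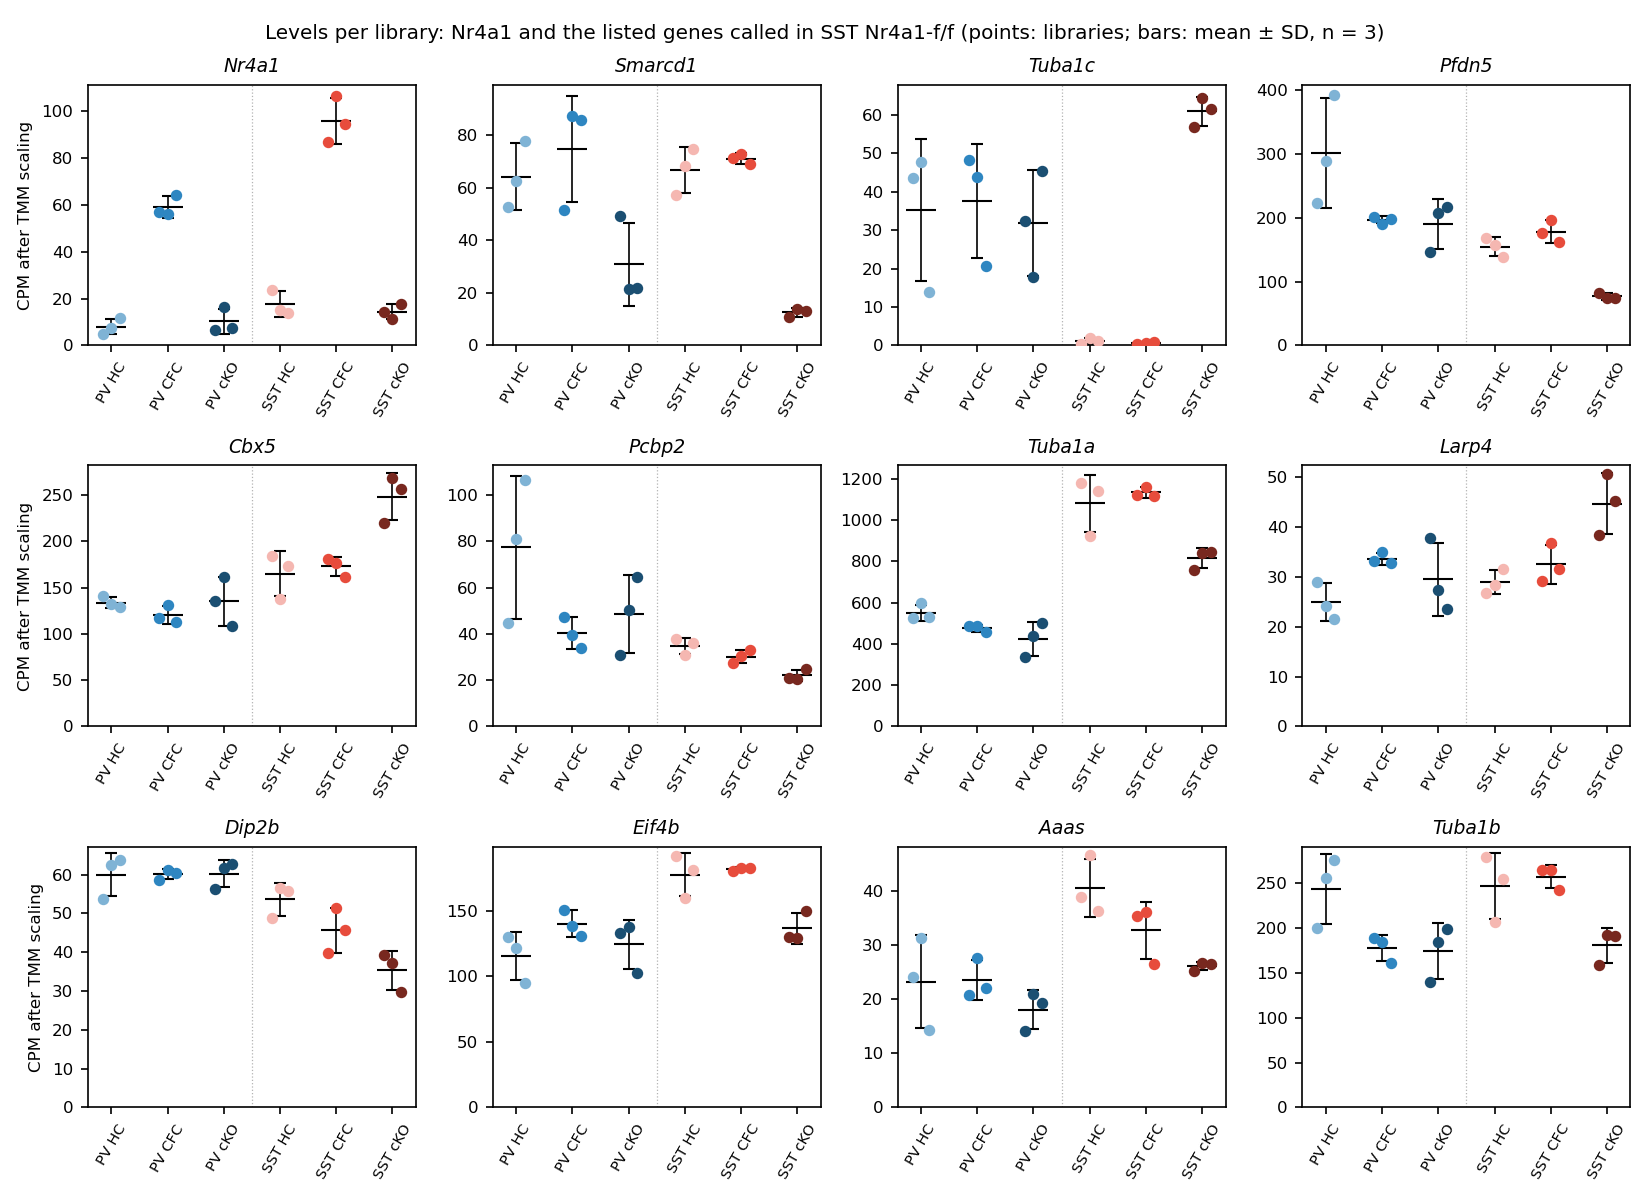
CPM per library (y axis) of Nr4a1 and of the 11 listed genes called in SST, in home cage (HC), CFC and Nr4a1-f/f (cKO) groups of both lines; bars are mean ± SD (n = 3). In SST the cKO points stand apart from home cage for all 11 genes, while Nr4a1 overlaps. The 11 were picked for passing in this same comparison, so their standing apart is no separate support. Of all genes tested, 29.8% had groups that did not overlap. Tuba1c entered through the cKO libraries.

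By role, the 10 cytoskeleton and cell division genes held 4 calls in SST, 3 lower and 1 higher. The higher gene was Tuba1c, which entered through the cKO libraries. The 8 RNA binding, processing and translation genes held 3, 1 higher and 2 lower, and the 11 transcription and chromatin genes 2, 1 in each direction. The 6 signalling and trafficking genes held 1, lower, and the 3 other genes 1, Dip2b. None of the 7 channels, transporters and membrane proteins and none of the 6 metabolism and mitochondria genes was called, where 3 and 2 of them had an unadjusted p below 0.05 with edgeR. Over all genes 8.1% were called, and no test compared the roles. Mfsd5, a membrane protein of the major facilitator superfamily, came closest to the threshold, with a log2 fold change of -0.43 ± 0.12 (adjusted p = 0.0535 by edgeR). All 6 signalling and trafficking genes had negative values, with a median of -0.35. The transcription and chromatin genes had a median of 0.16, and 7 of 11 were positive. Gpd1 (0.47 ± 0.20) and Zfp740, a zinc finger protein (0.25 ± 0.13), were the next positive values by p and were not called. For Tns2 and Lima1, SST cKO replicate 1, the library high in vascular markers, was far above the other cKO libraries. Tns2 measured 70.3 CPM there and 6.74 and 8.94 CPM in the others, and Lima1 48.2 CPM against 4.00 and 3.17 CPM. Home cage libraries were uneven too, with replicates 2 and 3 above replicate 1. Tns2 measured 8.83, 49.9 and 35.5 CPM there, and Lima1 7.25, 24.3 and 14.2 CPM. Without cKO replicate 1 the value of Tns2 moved from -0.13 ± 0.97 to -2.01, and without SST home cage replicate 2 or cKO replicate 2 or 3 it was 0.37, 0.34 and 0.30. The part of other cell types in these values was not tested.

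The counts were also read by distance, with no test of distance. Within 0.5 Mb, the 3 genes Grasp, Acvr1b and Slc4a8 had log2 fold changes of 0.09 ± 0.29, -0.80 ± 0.30 and 0.21 ± 0.14 in PV and -0.38 ± 0.34, -0.41 ± 0.17 and -0.31 ± 0.14 in SST, and 0 of 3 was called in either line. Acvr1b measured 17.8, 16.9 and 20.5 CPM in SST home cage and 13.7, 13.0 and 14.9 CPM in SST cKO, with no overlap (adjusted p = 0.174 by edgeR). In PV it measured 16.4, 23.6 and 41.5 CPM against 12.0, 17.9 and 16.6 CPM, with overlap, and it passed the threshold without home cage replicate 1 (adjusted p = 0.0345 by edgeR). On the higher side, Tns2 and Spryd3 had values of 0.73 ± 0.62 and 0.03 ± 0.18 in PV and -0.13 ± 0.97 and -0.13 ± 0.09 in SST. Between 0.5 and 1 Mb, 0 of 6 genes on the lower and 1 of 5 on the higher side, Eif4b, were called in SST. Between 1 and 1.5 Mb there were 2 of 4 on the lower and 3 of 11 on the higher side. Between 1.5 and 2 Mb there was 1 of 9 on the lower and 1 of 3 on the higher side, and beyond 2 Mb, where the 51 genes reach on the lower side alone, 3 of 10. By side, 6 of 32 genes on the lower (18.8%) and 5 of 19 on the higher side (26.3%) were called. Of all genes tested in SST, 8.1% were called, and most of the distance classes hold too few genes to compare with that share. The counts beyond 2 Mb and on the lower side include Tuba1c, which entered through the cKO libraries.

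Genes in the window that are not among the 51 give the background of the position. Of 61 such genes tested in SST, 7 were called, all lower (11.5%), and of the 486 other genes tested on chromosome 15, 13 were called higher and 22 lower (7.2%). The first 5 of the 7 by p were Atp5g2, Ppp1r1a, Myg1, Mettl7a1 and Igfbp6. Atp5g2, a subunit of ATP synthase at 1.39 Mb on the higher side, measured 26.8, 24.8 and 21.3 CPM in home cage and 11.03, 10.4 and 10.0 CPM in cKO, a log2 fold change of -1.21 ± 0.15 (adjusted p = 0.00157 by edgeR). It was called in all 15 alternatives, with the same limit as for Smarcd1. The phosphatase inhibitor Ppp1r1a had -0.51 ± 0.11, the methyltransferase-like Mettl7a1 -1.28 ± 0.29 and the growth factor binding protein Igfbp6 -0.95 ± 0.24, each with cKO libraries below home cage. Over all 112 genes of the window tested in SST, listed or not and without Nr4a1, 16.1% were called, 3 higher and 15 lower. Tuba1c is among those called higher. In PV, 0 of 62 genes of the window outside the list were called, with 13 at an unadjusted p below 0.05.

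Side by side, the 51 genes had the same sign in PV and SST for 30, of which 17 were negative and 13 positive in both (58.8%), against 61% over 14579 genes tested in both lines. Across the 51 genes the Pearson correlation of the 2 log2 fold changes was 0.35 and the Spearman correlation 0.50, against 0.182 and 0.258 over all genes tested in both lines and 0.248 and 0.331 over the rest of chromosome 15. Without Tuba1c the Pearson correlation was 0.66 and the Spearman correlation 0.55. Over 57 other genes within 5 Mb of Nr4a1 the 2 correlations were 0.30 and 0.36. Genes are not independent replicates, and the values are a description. Of the 11 genes called in SST, 8 had the same sign in PV (72.7%), against 78% of the 1246 genes called in SST and tested in both lines. At an unadjusted p below 0.05 by edgeR in both lines, 6 of the 51 genes were negative, 1 positive and 0 of opposite sign. Of the 14579 genes tested in both lines, 578 were negative, 251 positive and 106 of opposite sign at that level.

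The difference between the lines was tested directly, as the SST minus the PV cKO change. It was called for 1 of the 51 genes, Tuba1c, where 0.346% of 16452 genes were called. The difference for Tuba1c was 5.87 ± 0.68 on the log2 scale (adjusted p = 0.000669 by edgeR), 0.0501 by limma voom, and it keeps the confounding of batch and genotype on the SST side. It comes from a joint fit of both lines with its own filter, so it is not the exact difference of the separate values. For Smarcd1 the difference was -1.31 ± 0.38, with an adjusted p of 0.146 by edgeR, 0.206 by limma voom and 0.0285 by DESeq2. For Pfdn5 it was -0.31 ± 0.24 (adjusted p = 0.657), for Dip2b -0.57 ± 0.18 (0.184) and for Cbx5 0.61 ± 0.20 (0.205). At an unadjusted p below 0.05 there were 8 genes (15.7%, against 12.1% of all genes), 2 positive and 6 negative. For the other 10 genes called in SST, a difference between the lines was not shown.

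The cKO groups were also set against CFC, which shares the cKO libraries with the comparisons above. In SST, 8 of the 51 genes were called (15.7%, against 8.46% of all genes, 3.11% higher and 5.35% lower). Smarcd1, Pfdn5, Tuba1a, Tuba1b, Eif4b and Mfsd5 were lower and Tuba1c and Cbx5 higher. Tuba1c, below the level of the rule in the CFC batch, again entered through the cKO libraries, so its call supports nothing. Without any 1 of the CFC libraries, or without cKO replicate 2, 4 of the 51 were called, and 5 without cKO replicate 3. In PV 0 of 51 were called with edgeR (0.132% of all genes), with 6 at an unadjusted p below 0.05 (11.8%, against 5.51% of all genes), 1 by DESeq2, 0 by limma voom and 1 with edgeR without cKO replicate 1. Against CFC, Pfdn5 in PV cKO overlapped: the CFC libraries measured 201, 191 and 199 CPM. Smarcd1 in PV CFC measured 51.6, 87.4 and 85.9 CPM, all above the cKO libraries.

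Where the genotype was the same, none of the 51 passed with edgeR after CFC or PTZ. CFC against home cage gave 0 of 51 in PV (0% of all genes). At an unadjusted p below 0.05 there were 9 (17.6%, against 18.7% of all genes), and DESeq2 called 2, of 585 genes in all, and limma voom 0. Without home cage replicate 1, edgeR called 6 of the 51 and 1481 of all genes. In SST it gave 0 of 51 (0.0259%), with 0 at an unadjusted p below 0.05 (6.67% of all genes) and 0 by either other tool. PTZ against saline gave 0 of 50 in PV (0.0294%), with 7 at an unadjusted p below 0.05 (14%, against 13.8% of all genes), 1 by DESeq2 and 0 by limma voom. In SST it gave 0 of 47 (0.144%), with 2 at an unadjusted p below 0.05 (4.26%, against 4.34%) and 0 by either other tool. The median log2 fold change over the listed genes was 0.16 for CFC in PV, -0.04 for PTZ in PV and -0.05 for PTZ in SST.

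**Figure D4:**
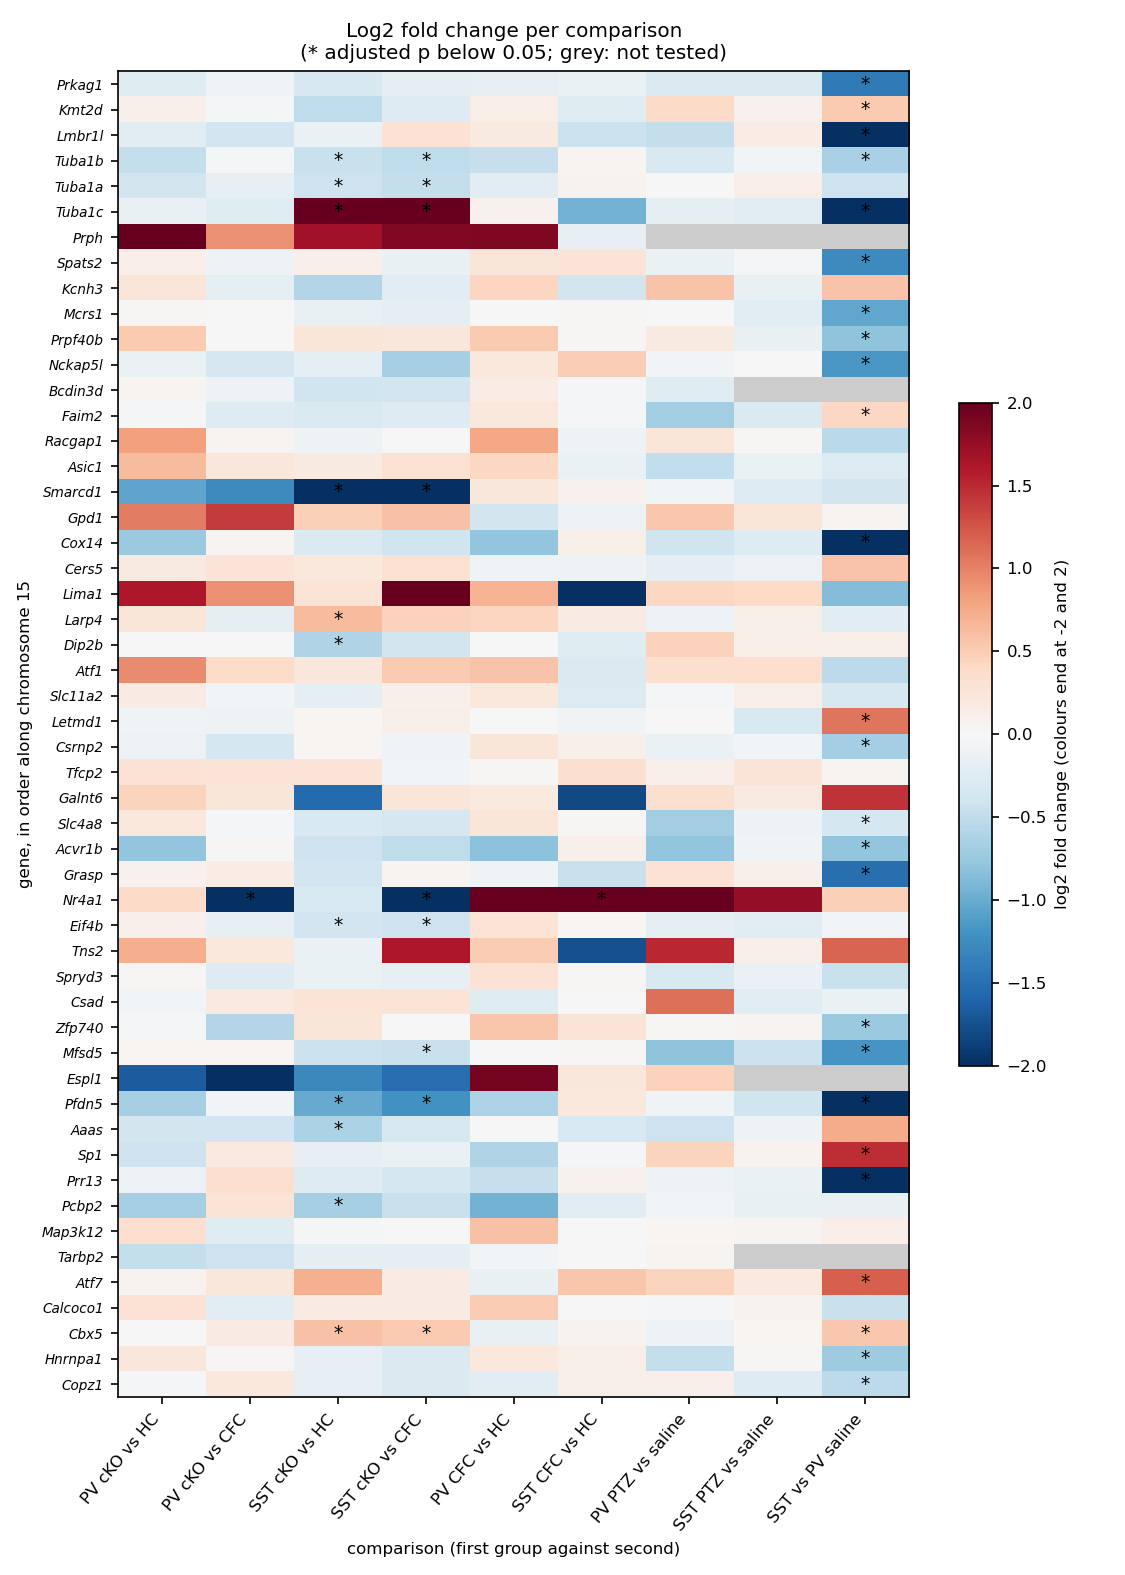
Log2 fold change of the 51 genes and Nr4a1 (rows, in order along chromosome 15) in 9 comparisons (columns); stars mark an adjusted p below 0.05 and grey marks genes not tested. Stars for the 51 genes stand in the SST cKO columns and in the comparison of SST with PV saline libraries, and in no CFC against home cage, PTZ or PV cKO column.

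The share of the genes that differed between the lines was near that of all genes. Within batch 2, 25 of 47 genes tested differed between SST saline (n = 4) and PV saline (n = 2) libraries (53.2%, against 53.1% of all genes), 6 higher (26% of all genes were) and 19 lower (27.1%). The PV libraries held 6161764 and 4933110 counts and the SST saline libraries 13763931 to 18367658, so depth and line go together here. The part of depth in these differences was not tested. The first 10 genes by p were Tuba1c, Pfdn5, Sp1, Prr13, Cox14, Prkag1, Spats2, Mfsd5, Letmd1 and Cbx5. Tuba1c measured 18.7, 11.9, 15.5 and 11.7 CPM in SST and 93.9 and 129 CPM in PV, a log2 fold change of -2.94 ± 0.24 (adjusted p = 2.22e-06 by edgeR). Pfdn5 measured 20.7, 8.82, 11.1 and 13.7 CPM in SST and 69.9 and 88.5 CPM in PV, or -2.54 ± 0.27. Sp1, a zinc finger factor that binds GC boxes, was higher in SST, with 38.8, 43.4, 38.6 and 39.2 CPM against 14.1 and 14.8 CPM, or 1.47 ± 0.16. The groups did not overlap for these 3 genes, which were picked by p, so this is a description. Prr13 and Cox14 were lower in SST by a similar amount (-2.52 ± 0.27 and -2.93 ± 0.37). Prkag1, a subunit of AMP-activated kinase, was at -1.42 ± 0.20, Spats2 at -1.28 ± 0.22 and Mfsd5 at -1.18 ± 0.21, while Letmd1 (1.07 ± 0.22) and Cbx5 (0.54 ± 0.11) were higher in SST. Levels are compared within a table only: Kmt2d, a histone H3 lysine 4 methyltransferase, measured 27.0 to 43.9 CPM in the PV libraries of batch 3 and 445 to 769 CPM in those of batch 1.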

How the data were processed

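RNA sequencing of ribosome-bound mRNA covered 34 libraries in 11 groups. The builds mm10 and GRCm39, HTSeq 0.11.0, STAR 2.5.2a and cutadapt 1.18 are named, without roles, in the submitters' processing notes. The table the authors deposited for batch 1 holds expected counts, of which 11.3% were not whole and were rounded. The authors deposited raw counts for batches 2 to 5. Groups and replicate numbers came from the sample titles. Among 37 replicate pairs 0 were identical (smallest chi-square per degree of freedom 6.18). Nothing in the labels ties a library to its own animal, and the spread behind each p-value may be technical.

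The main test was edgeR 4.0.16 (R 4.3.3; quasi-likelihood, robust, two-sided, TMM, filterByExpr) with Benjamini-Hochberg adjustment over all genes at 0.05. SST batches 4 and 5 were joined and fitted together. CPM were scaled by TMM over the libraries fitted together, and the SE is the absolute log2 fold change over the square root of F. Alternatives used DESeq2 1.42.0, limma 3.58.1 voom, RLE scaling, other filters, fewer libraries and a replicate block. One of the filters acted on the listed genes alone, so for any single gene it repeats the main fit. Another alternative summed the 3 Tuba1 genes, so for any other gene it is close to the main fit. On simulated counts with 100 genes changed per size, 61% were recovered at a log2 change of 1 and 94% at 2 for PV, 59% and 92% for SST, and 31% and 77% for their difference. The changed genes were drawn from those with a mean above 5 CPM, and no batch shift or deviating library was simulated. These rates therefore do not cover genes of lower level or groups with such a library. Positions, gaps between gene bodies and transcripts came from GENCODE M21 (GRCm38); 99.6% of the batch 3 gene identifiers are in it. The 51 genes and the gene lists were chosen with earlier results of these data known. Named were Nr4a1, the 3 nearest genes on each side, genes called in a cKO comparison or, up to 5 per direction, those with the smallest p, the Tuba1 genes, up to 10 called in each other comparison, and up to 5 called genes of the window outside the list. Genes also named for another reason (Lima1 and Tns2 with vascular markers, Kmt2d between tables) were chosen after their values were seen. Coding sequences of the α-tubulins are not reported here.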

Additional observations from a re-analysis of the deposited data

Results flagged for a closer look

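In groups of 4, the gap between the highest or lowest library and the next one, as a share of the range, was compared with Dixon's 95% critical value for the genes named in the results. Of 59 such groups 5 were above it, where chance gives about 1 in 20. With PTZ in PV, replicate 2 had 9.50 CPM of Racgap1 against 4.70 to 5.27 CPM in the others. The same library had 12.2 CPM of Lima1 against 7.98 to 8.48 CPM. Another library, replicate 1, had 40.1 CPM of Spryd3 against 29.8 to 31.5 CPM. With saline in SST, 1 library had 23.5 CPM of Zfp740 against 19.3 to 19.9 CPM, and 1 had 43.4 CPM of Sp1 against 38.6 to 39.2 CPM. None of these genes was called in a PTZ comparison.

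The value of Tuba1c for cKO against home cage was 5.67 on the log2 scale in SST and -0.15 in PV, and a joint fit of both lines, with its own filter, gave a difference of 5.87 ± 0.68 (adjusted p = 0.000669 by edgeR). On the SST side batch and genotype cannot be told apart, and Tuba1c was below 2 CPM in all 6 libraries of batch 4, home cage and CFC. With the 3 Tuba1 genes added into 1 feature the difference was 0.10 ± 0.18 (adjusted p = 0.880 by edgeR). Tuba1c took at most 6.67% of the counts summed, so the sum follows Tuba1a and Tuba1b and does not bear on the difference for Tuba1c.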

How the results depend on the processing

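For PV cKO against home cage, the count of listed genes called went from 0 to 5 with DESeq2, 7 with no filter and 0 to 4 when each library was left out, and that of all genes from 21 to 652, 1072, 10 with only the groups compared and 7 to 1224. For SST it went from 11 to 7 with only the groups compared, 6 with a replicate block and 3 to 9 when each library was left out, and over all genes from 1252 to 2252 with DESeq2 and 412 to 1292. For the difference it went from 1 to 2 with DESeq2, 0 with limma voom and 0 with the Tuba1 genes summed, and over all genes from 57 to 424, 124 with no filter, 21 with only the groups compared and 17 to 133. The summed setting takes out Tuba1c, the 1 listed gene called for the difference, so its 0 does not bear on that gene. Against CFC the count of listed genes went in PV from 0 to 1 with DESeq2, 3 with no filter and 0 to 1, and in SST from 8 to 15 with DESeq2, 5 with a replicate block and 4 to 6 when each library was left out. For CFC in PV it went from 0 to 2 with DESeq2, 6 with no filter and 0 to 6, and for PTZ in PV to 1 with DESeq2. The count over all genes in PV was 9 without home cage replicate 2 and 7 without cKO replicate 1, and for the difference it was 133 without PV home cage replicate 1 and 17 and 18 without SST cKO replicates 2 and 3. The cause was not tested.

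Values near 0 changed sign. In PV, Cbx5 was -0.0065 with RLE, -0.0072 with limma voom and -0.0027 with a replicate block, Dip2b -0.0042 with the CPM filter, -0.0036 with DESeq2, -0.0126 with RLE and -0.0035 with only the groups compared, and Tuba1c 0.0073 with a replicate block. In the difference, Pcbp2 was -0.0432 with limma voom, and Tuba1a -0.0254 with DESeq2, -0.0274 with RLE and -0.0168 with no filter. Nr4a1 in SST against PV saline was -0.127 with a replicate block. When each library was left out, the PV values ran from -0.13 to 0.15 for Cbx5, -0.0615 to 0.0572 for Dip2b, -0.0216 to 0.230 for Eif4b, -0.21 to 0.32 for Grasp, -0.14 to 0.72 for Nr4a1, -0.18 to 0.17 for Spryd3 and -0.53 to 0.14 for Tuba1c. In SST they ran from -0.47 to 0.0061 for Nr4a1 and -2.01 to 0.37 for Tns2. In the difference they ran from -0.28 to 0.34 for Pcbp2, -0.16 to 0.13 for Tuba1a and -0.0878 to 0.20 for Tuba1b, and for Nr4a1 in SST against PV saline from -0.10 to 1.65.

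Replicate numbers were not taken to pair the samples: same-numbered libraries of the cKO and home cage groups deviated together with correlations from -0.05 to 0.23 in PV and -0.33 to 0.02 in SST. The level of Tuba1c in SST home cage rests on 8 to 33 counts per library, which limits the precision of its fold change.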
